A study of Mus musculus with 28 samples.

Results

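The genes described here encode secreted vascular growth factors and their co-receptors in an arteriovenous fistula (AVF) of the mouse neck, a vein joined to an artery by surgery to model hemodialysis access. They were chosen by symbol: the VEGF family ligands *Vegfa*, *Vegfb*, *Vegfc*, *Vegfd* and *Pgf*, the angiopoietins *Angpt1* and *Angpt2*, the neuropilins *Nrp1* and *Nrp2*, and the apelin gene *Apln*. These are 10 of the 56980 genes in the bulk table, and all 10 reached the minimum mean count and were tested among 12673 genes. The study profiled 25 vessels by bulk RNA-seq, 7 contralateral jugular veins and 8 early, 5 mid and 5 late AVFs, taken at approximately 3, 10 and 21 days after surgery. It also profiled 3 single-cell libraries (contralateral, early and late), each a pool of vessels and therefore 1 sample. The study's mean days for the early and late single-cell libraries were later than those of the bulk groups of the same name. All animals were C57BL/6 mice, female or male, that underwent subtotal nephrectomy and then an AVF joining the end of a jugular vein to the side of a carotid artery, so the contralateral veins came from operated mice with reduced kidney mass and not from untouched ones. The contralateral group held 5 female and 2 male mice, the early group 3 and 5, and the mid and late groups 3 and 2 each.

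VEGF ligands bind receptor tyrosine kinases on blood and lymphatic endothelium and drive vessel growth and permeability, with VEGF-C and VEGF-D acting mainly on the lymphatic receptor encoded by *Flt4*. Angiopoietin 1 activates the receptor encoded by *Tek* and keeps endothelium quiescent, whereas angiopoietin 2, stored and released by activated endothelium, can oppose it. Neuropilins present VEGFs and class 3 semaphorins to their signalling receptors, and apelin is a peptide made by sprouting endothelial cells that acts on the receptor encoded by *Aplnr*.

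Promoter sequence is shown for the gene with the largest bulk change and for the VEGF ligand with the most single-cell counts, so that the letters upstream of their starts can be read beside the values. RefSeq promoters on GRCm38.p6 were matched for 8 of the 10 genes, and *Angpt1* and *Angpt2* had no entry. Only the 250 bases before the annotated start are printed, 5′ to 3′ on the gene's own strand, with matches on either strand in capitals. The motifs searched were the SP1 box GGGCGG, the TATA box TATAAA, the AP-1 site TGANTCA, the forkhead site GTAAACA and the cores bound by hypoxia-inducible factors, ACGTG in 1 form and GCGTG in the other. No matches overlapped in these windows. The *Apln* window lay at chrX:48034854-48035103 on the minus strand, and the *Vegfa* window, the first of 2 that RefSeq lists for this gene, at chr17:46032378-46032627 on the minus strand.
Apln: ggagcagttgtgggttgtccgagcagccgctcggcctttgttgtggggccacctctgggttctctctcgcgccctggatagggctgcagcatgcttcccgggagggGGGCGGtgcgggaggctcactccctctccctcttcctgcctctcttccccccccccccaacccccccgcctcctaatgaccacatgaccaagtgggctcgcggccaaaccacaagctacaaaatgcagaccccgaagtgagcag
Vegfa: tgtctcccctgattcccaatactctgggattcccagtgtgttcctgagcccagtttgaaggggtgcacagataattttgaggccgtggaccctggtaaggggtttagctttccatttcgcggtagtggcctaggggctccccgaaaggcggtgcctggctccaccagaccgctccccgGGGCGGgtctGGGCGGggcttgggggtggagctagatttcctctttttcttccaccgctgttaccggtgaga
The *Apln* window held 1 GGGCGG, beginning 144 bases before the start, in a stretch of 65.2% G or C. The *Vegfa* window held GGGCGG at 72 and 62 bases before the start and was 59.2% G or C. GGGCGG occurred in 32.7% of 32851 promoters of the same length, TATAAA in 12.4%, the AP-1 site in 6.75%, the forkhead site in 3.17% and a hypoxia-inducible factor core in 38.6%. Neither printed window held a match to any of these motifs other than GGGCGG. The second *Vegfa* window, at chr17:46025164-46025413 and not printed, lay inside the annotated gene (chr17:46016993-46032369) and not upstream of it. The bases after its listed start were not matched in the annotated transcripts, so its matches cannot be taken as promoter sites. It held ACGTG at 211, GCGTG at 218 and GGGCGG at 158 bases before that start.

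Levels in bulk are counts scaled to a common library size (CPM), with library sizes adjusted by the trimmed mean of M-values (TMM). A gene was called when its adjusted p from edgeR's quasi-likelihood test (Benjamini–Hochberg over all genes tested) was under 0.01 and its log2 fold change was at least 1 in size. Against contralateral veins, 3 of the 10 genes were called in early AVFs, *Apln* higher and *Vegfd* and *Angpt1* lower, where 12.6% of all genes tested were called. Only *Apln* was called in mid AVFs, against 6.05% of all genes, and again only *Apln* in late AVFs, against 5.33%. The median log2 fold change of the 10 genes was -0.14 early, -0.18 mid and -0.08 late, beside -0.01, -0.10 and -0.09 for all genes tested. None of the 10 was called between AVF time points, where 0.00789% of genes were called for mid against early, 3.01% for late against early and 0% for late against mid (39 of 12673 genes had an unadjusted p under 0.05 in the last). These tests used a spread estimated over all groups, the contralateral veins included. A lack of calls between AVF time points therefore does not show equal levels.

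The contralateral libraries were the least alike. Their totals ran from 20254173 to 29913427 counts and their median pairwise Spearman correlation was 0.68, beside 0.87 for early, 0.96 for mid and 0.95 for late AVFs. Early totals ran from 23676215 to 67457501, mid from 27021483 to 33395623 and late from 27855449 to 36879746 counts. Fewer genes had a count in contralateral libraries, 11958 to 18283, than in mid and late ones, 24529 to 26771, while the early libraries had 17514 to 25141. That difference moves with the contralateral values at 0 of *Apln*, *Vegfc* and *Pgf*, and its part in them was not tested. The coefficient of variation of the 10 genes in contralateral veins ran from 0.396 for *Vegfd* to 2.06 for *Apln*, and in late AVFs from 0.114 for *Vegfc* to 0.537 for *Vegfb*. The 10 pan-endothelial markers summed to between 2785 and 5182 CPM in the contralateral group, 458 and 870 for early, 727 and 1050 for mid, and 874 and 1114 for late AVFs, and 7 of the 10 were called lower in early AVFs with none higher. In bulk tissue, fewer cells of a type and less RNA per cell cannot be told apart.

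**Figure D1:**
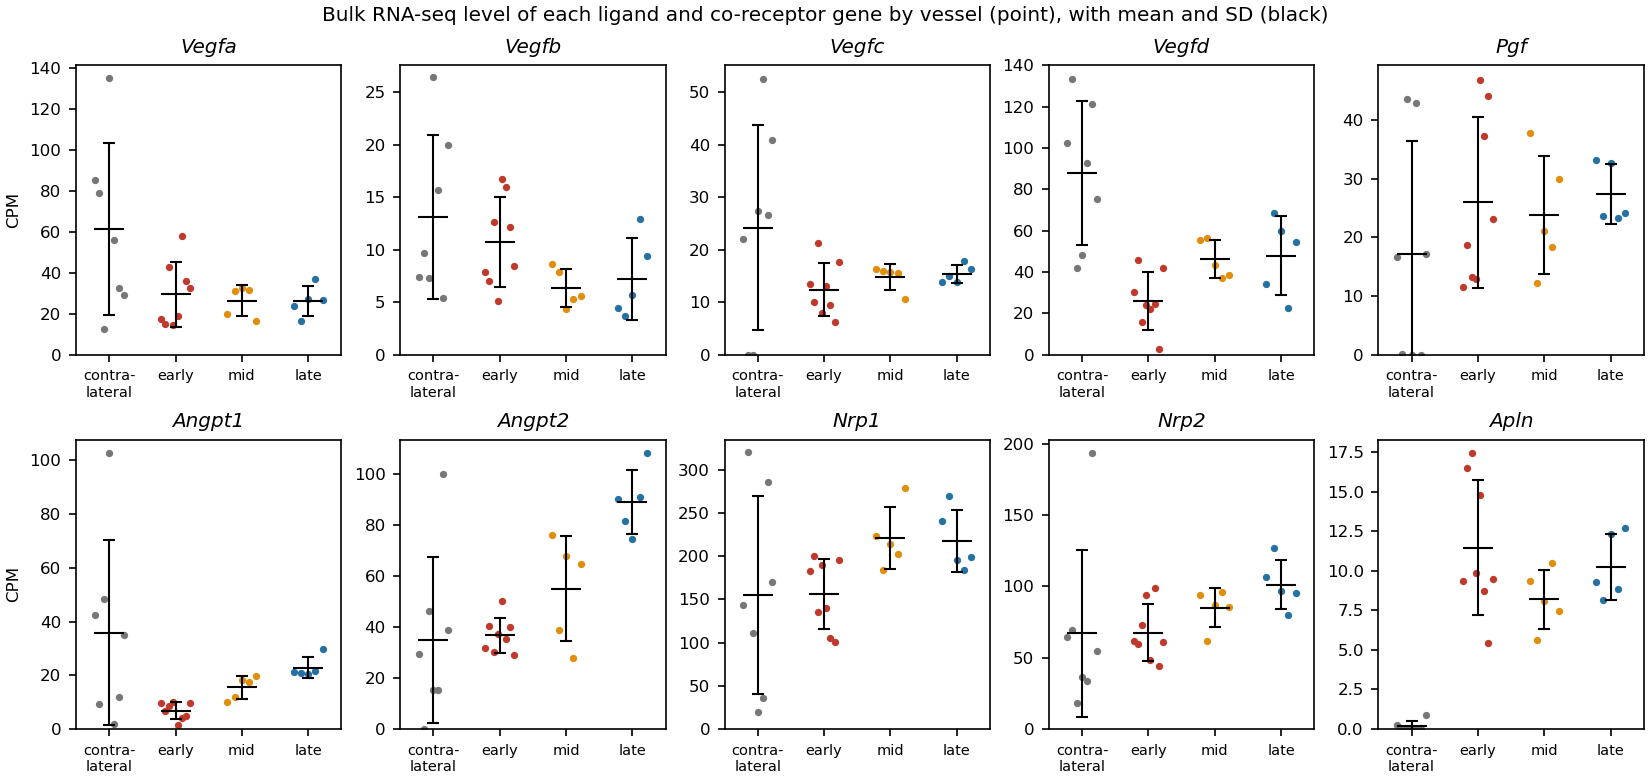
Bulk level (CPM, linear axis from 0) of the 10 genes in each of 25 vessels, with contralateral veins in grey, early AVFs in red, mid in orange and late in blue. Black bars give the mean and SD of each group. *Apln* lay near 0 in all 7 contralateral veins and between 5.44 and 17.4 CPM in all 18 AVFs, while most other genes had their widest spread in contralateral veins.

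Among the VEGF ligands, *Vegfd* had the highest bulk level for its length in contralateral veins and was the only one called lower. Per kilobase of exon, the contralateral means were 36.5 ± 14.5 CPM (SD, n = 7) for *Vegfd*, 14.4 ± 9.83 for *Vegfa*, 9.90 ± 7.95 for *Vegfc*, 8.18 ± 4.89 for *Vegfb* and 5.91 ± 6.65 for *Pgf*. The last 3 lay within their spread of each other.

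*Vegfd* had a lowest, median and highest level of 41.8, 92.9 and 134 CPM in contralateral veins and of 2.76, 24.3 and 45.8 CPM in early AVFs. The 5 mid AVFs had 55.5, 56.5, 43.6, 37.1 and 38.5 CPM, and the 5 late AVFs 34.2, 68.6, 60.04, 22.5 and 54.6 CPM. In early AVFs, 6 of 8 lay below every contralateral vein, whereas mid and late AVFs overlapped both groups. *Vegfd* (chrX:164373378-164402650, plus strand, GRCm38) fell by 1.76 on the log2 scale in early AVFs (SE 0.39, adjusted p = 0.00175), and its changes in mid (-0.93, SE 0.45, adjusted p = 0.192) and late AVFs (-0.87, SE 0.45, adjusted p = 0.231) did not pass. The early call was lost without the 2 deepest early libraries, replicates 5 and 6 (-1.65, adjusted p = 0.0113), and in female mice alone (-1.78, adjusted p = 0.187). The summed level of 10 fibroblast markers, 17849 to 45424 CPM in contralateral veins and 3744 to 40840 in early AVFs, moved the same way, with 5 of 10 called lower and none higher. Its part in the *Vegfd* difference was not tested.

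*Vegfa*, the founding VEGF and a target of hypoxia signalling, had 12.4, 56.3 and 135 CPM as its lowest, median and highest contralateral levels and 14.3, 25.8 and 58.2 CPM in early AVFs. All early, mid and late values lay inside the contralateral range. On the log2 scale the early change was -1.06 (SE 0.41, adjusted p = 0.0668), the mid change -1.22 (SE 0.48, adjusted p = 0.102) and the late change -1.23 (SE 0.49, adjusted p = 0.104), none of them called. *Vegfb*, a ligand of the receptor encoded by *Flt1*, had a contralateral mean of 13.1 ± 7.84 CPM (SD, n = 7). Its AVF means were 10.8 ± 4.29 CPM early (n = 8), 6.39 ± 1.81 mid and 7.22 ± 3.88 late (n = 5 each), with overlapping ranges and no call.

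*Vegfc*, the main lymphatic growth factor, was listed at 0 in 2 of 7 contralateral veins (replicates 28 and 31) and had 22.1 to 52.5 CPM in the other five. In AVFs it had 6.27 to 21.3 CPM at the early, 10.5 to 16.3 at the mid and 13.8 to 17.9 at the late time point. The AVFs therefore lay between the veins listed at 0 and the veins above 20 CPM, and the 95% interval of the early log2 fold change ran from -2.63 to 0.70. *Pgf*, the placental growth factor gene, was listed at 0 in 2 contralateral veins (replicates 34 and 632), stood at 0.12 CPM in replicate 28 and reached 43.5 CPM in replicate 31. It was present in all 18 AVFs at 11.6 to 46.8 CPM, and its early change of 0.60 had an interval from -1.29 to 2.48, so neither a rise nor a fall was detectable.

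Of the angiopoietins, *Angpt1* was called lower in early AVFs and *Angpt2* was not called. Both genes had a higher level in every late AVF than in every early one, although neither of those differences passed the adjusted threshold. Per kilobase of exon, *Angpt1* and *Angpt2* had contralateral means within their spread of each other, 6.89 ± 6.61 and 9.50 ± 8.84 CPM (SD, n = 7), and late means of 4.38 ± 0.76 and 24.2 ± 3.42 CPM (n = 5).

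For *Angpt1*, the lowest, median and highest levels were 2.00, 34.8 and 103 CPM in contralateral veins and 1.33, 7.76 and 10.0 CPM in early AVFs. Mid AVFs had 9.93, 12.0, 18.2, 17.5 and 19.7 CPM and late AVFs 21.3, 20.8, 20.3, 21.7 and 29.8 CPM. The early values sat in the lower part of a wide contralateral range, which reached down to 2.00 CPM in vein 35. *Angpt1* (chr15:42424723-42676977, minus strand) fell by 2.39 on the log2 scale in early AVFs (SE 0.57, adjusted p = 0.00297). That call was lost without contralateral vein 34, the highest one (-1.85, adjusted p = 0.0128), without early replicates 5 and 6 (-2.06, adjusted p = 0.0165) and in female mice alone (-2.69, adjusted p = 0.162). The fibroblast markers given beside *Vegfd* moved the same way in early AVFs (contralateral median sum 38049 CPM, early median sum 25264), and their part in the *Angpt1* difference was not tested. The mid (-1.21, SE 0.64, adjusted p = 0.241) and late (-0.65, SE 0.63, adjusted p = 0.573) changes were not called. Late against early, the log2 fold change was 1.74 (SE 0.60, adjusted p = 0.0830), and all 5 late AVFs lay above all 8 early and all 5 mid AVFs.

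For *Angpt2*, the contralateral veins had 0.06, 29.5 and 99.9 CPM as lowest, median and highest, and the early AVFs 28.9, 36.2 and 50.04 CPM. Mid AVFs had 76.1, 38.7, 68.0, 27.8 and 64.6 CPM and late AVFs 90.3, 81.7, 74.6, 91.2 and 108 CPM. The early and late AVFs each spanned a narrower range than the contralateral veins, and 6 of 7 contralateral veins lay below every late AVF. The log2 fold change against contralateral veins was 0.07 early (95% interval -1.08 to 1.21), 0.65 mid and 1.35 late (0.07 to 2.63, adjusted p = 0.175). Late against early it was 1.28 (SE 0.60, adjusted p = 0.285), and the ranges did not overlap. Non-overlapping ranges between late and early AVFs were found for 2 of the 10 genes, these angiopoietins, and for 15.5% of all genes tested, and between late and mid AVFs for *Angpt1* alone and for 2.11% of all genes.

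The ratio of *Angpt2* to *Angpt1*, per kilobase and chosen after the values were seen, had a contralateral median of 1.35 (0.0096 to 12.0). Its AVF medians were 6.82 early (4.24 to 53.0), 4.63 mid (2.24 to 10.8) and 5.54 late (5.12 to 5.99). The late AVFs were close to each other, and 3 early AVFs (12.1, 12.5 and 53.0) lay above the highest contralateral vein. Set against the endothelial markers, *Angpt2* had 0.0125 to 25.6 CPM for every 1000 CPM of the 10-marker sum in contralateral veins. The early AVFs had 38.8 to 87.8 on this scale, the mid 31.5 to 72.5 and the late 73.4 to 104. *Angpt2* itself overlapped the contralateral range in each AVF group, with means of 35.0 CPM contralateral, 36.8 early, 55.0 mid and 89.2 late. The marker sum was lower in every AVF than in every contralateral vein. These ratios alone therefore do not show more *Angpt2* per endothelial cell. The summed level of 10 smooth muscle markers, of the lineage that held most *Angpt2* UMIs in the early and late single-cell libraries, was also lower in every AVF, at 11231 to 23685 CPM in the contralateral group, 1167 to 2807 early, 2178 to 2676 mid and 2692 to 4384 late. Of these markers 8 of 10 were called lower in early AVFs and none higher, and their part in the *Angpt2* levels was not tested.

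Neither neuropilin gene was called at any time point, and per kilobase of exon *Nrp1* stood above *Nrp2* in all 4 groups (contralateral means 15.9 ± 11.7 and 5.66 ± 4.96 CPM, SD, n = 7, and late means 22.2 ± 3.66 and 8.54 ± 1.46 CPM, n = 5). *Nrp1*, a co-receptor of VEGF-A and of semaphorin 3A, had 20.1, 144 and 320 CPM as lowest, median and highest in contralateral veins and 101, 161 and 199.8 CPM in early AVFs. Its mid and late AVFs ran from 184 to 279 and from 184 to 269 CPM, inside the contralateral range. *Nrp2*, a co-receptor of VEGF-C on lymphatic and venous endothelium, had 18.1, 54.5 and 194 CPM in contralateral veins, 44.0, 61.4 and 98.7 CPM in early AVFs, 61.8 to 95.8 CPM in mid and 80.1 to 127 CPM in late AVFs. Contralateral vein 632 alone held the 194 CPM, and the next highest contralateral value was 69.1 CPM. The early log2 fold changes were 0.01 for both (95% intervals -0.75 to 0.77 and -0.69 to 0.71), with signs that turned under other scalings. In late AVFs they were 0.49 (-0.36 to 1.34) for *Nrp1* and 0.59 (-0.19 to 1.37) for *Nrp2*.

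*Apln* was at or near 0 in the contralateral veins and present in every AVF. The gene lies at chrX:48025146-48034853 on the minus strand. It was listed at 0 in 5 of 7 contralateral veins, at 0.237 CPM in vein 27 and at 0.862 CPM in vein 633, the 2 contralateral libraries with the most genes detected (17595 and 18283). Early AVFs had 5.44, 9.66 and 17.4 CPM as lowest, median and highest, mid AVFs 9.34, 5.61, 8.11, 10.5 and 7.44 CPM, and late AVFs 9.30, 8.12, 12.3, 8.84 and 12.7 CPM. Every AVF lay above every contralateral vein at each time point, as did 4.47% of all genes for early, 7.32% for mid and 6.25% for late AVFs, and the 3 AVF groups overlapped each other. The log2 fold change was 6.11 (SE 1.05, adjusted p = 0.000105) in early, 5.63 (SE 1.06, adjusted p = 0.000617) in mid and 5.95 (SE 1.07, adjusted p = 0.0005) in late AVFs, with no difference called between time points (late against early -0.16, 95% interval -2.01 to 1.69). With so few contralateral counts, 6 in vein 27 and 25 in vein 633, the fitted size ranged from 5.81 to 7.98 in early AVFs over the alternatives tried. In female mice alone the changes were 7.26, 7.37 and 7.57, and the calls were lost (adjusted p = 0.0115, 0.0157 and 0.0145). *Apln* for every 1000 CPM of the endothelial marker sum was 0 to 0.269 in contralateral veins and 7.29 to 22.2 across the AVFs, where the marker sum was itself lower.

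**Figure D2:**
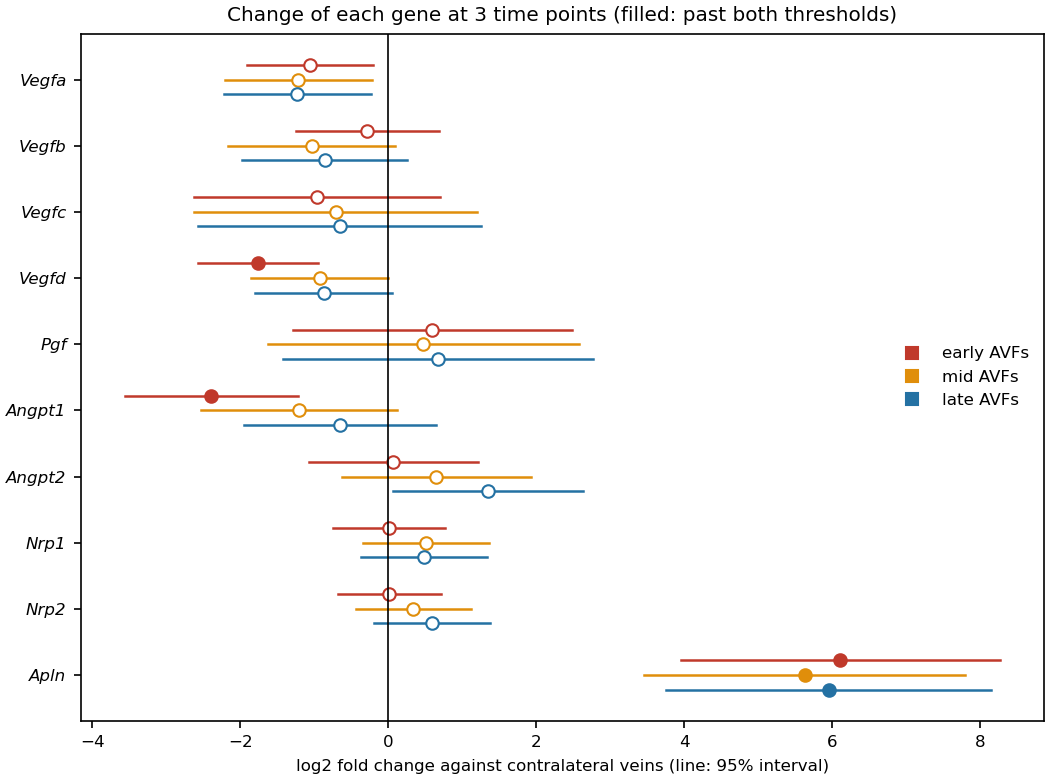
Log2 fold change of each gene against the 7 contralateral veins in early (red), mid (orange) and late (blue) AVFs, with 95% intervals from edgeR's quasi-likelihood test. Filled points passed both thresholds: *Apln* at all 3 time points, and *Vegfd* (-1.76) and *Angpt1* (-2.39) in early AVFs.

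The early change was tested for a difference between the sexes, and 0 of the 10 genes passed an adjusted p of 0.05 (57 of all 12673 genes did, and 1 of the 10 had an unadjusted p under 0.05). That gene was *Nrp2* (unadjusted p = 0.0268), with a log2 fold change of 0.62 in female and -0.88 in male mice (adjusted p = 0.471 by edgeR's quasi-likelihood test of the interaction). Only 2 contralateral veins were from male mice, and 1 of them was the vein with 194 CPM.

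None of the receptor genes of these ligands was called higher. In early AVFs 3 of 6 receptor genes were called lower, and *Flt1* was the 1 gene called lower in mid and in late AVFs. Of all genes tested, 12.6%, 6.05% and 5.33% were called in either direction at these time points. Of the 10 pan-endothelial markers, 7 were called lower in early AVFs, with a median log2 fold change of -1.64. Their part in the receptor levels was not tested. *Flt1*, which encodes a high-affinity receptor and trap for VEGF-A, VEGF-B and placental growth factor, had 92.8 to 205 CPM in contralateral veins and 34.2 to 63.9 CPM in early AVFs. It fell by 1.28 (SE 0.20, adjusted p = 3.13e-05), 1.21 (adjusted p = 0.000768) and 1.202 (adjusted p = 0.00107) on the log2 scale. *Tek*, the angiopoietin receptor gene, fell by 2.49 in early AVFs (SE 0.42, adjusted p = 9.64e-05), from a contralateral range of 37.3 to 862 CPM to 24.1 to 68.7 CPM, and *Tie1*, which encodes its orphan partner receptor, fell by 1.61 (SE 0.29, adjusted p = 0.000216).

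For every 1000 CPM of the endothelial marker sum, *Tek* had a contralateral median of 48.0 CPM (12.0 to 172) and medians of 56.2 early (43.8 to 86.6), 106 mid and 106 late. *Kdr*, the principal VEGF-A signalling receptor gene, was not called (early -0.82, SE 0.43, adjusted p = 0.183). The lymphatic receptor gene *Flt4* had 0 to 41.1 CPM in contralateral veins, 3.01 to 25.7 in early and 37.1 to 56.7 in late AVFs (late log2 fold change 2.54, SE 1.07, adjusted p = 0.130). The summed level of 6 lymphatic endothelial markers was 224 to 554 CPM in contralateral veins and 502 to 706 CPM in late AVFs, with none of the 6 called, and its part in the *Flt4* levels was not tested. *Aplnr*, the receptor gene for apelin, had 0.09 to 44.2 CPM in contralateral veins and 54.7 to 109 CPM in mid AVFs. The ranges did not overlap, as for 7.32% of all genes in that direction, and its change of 2.34 (SE 0.82, adjusted p = 0.0624) was not called.

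**Figure D3:**
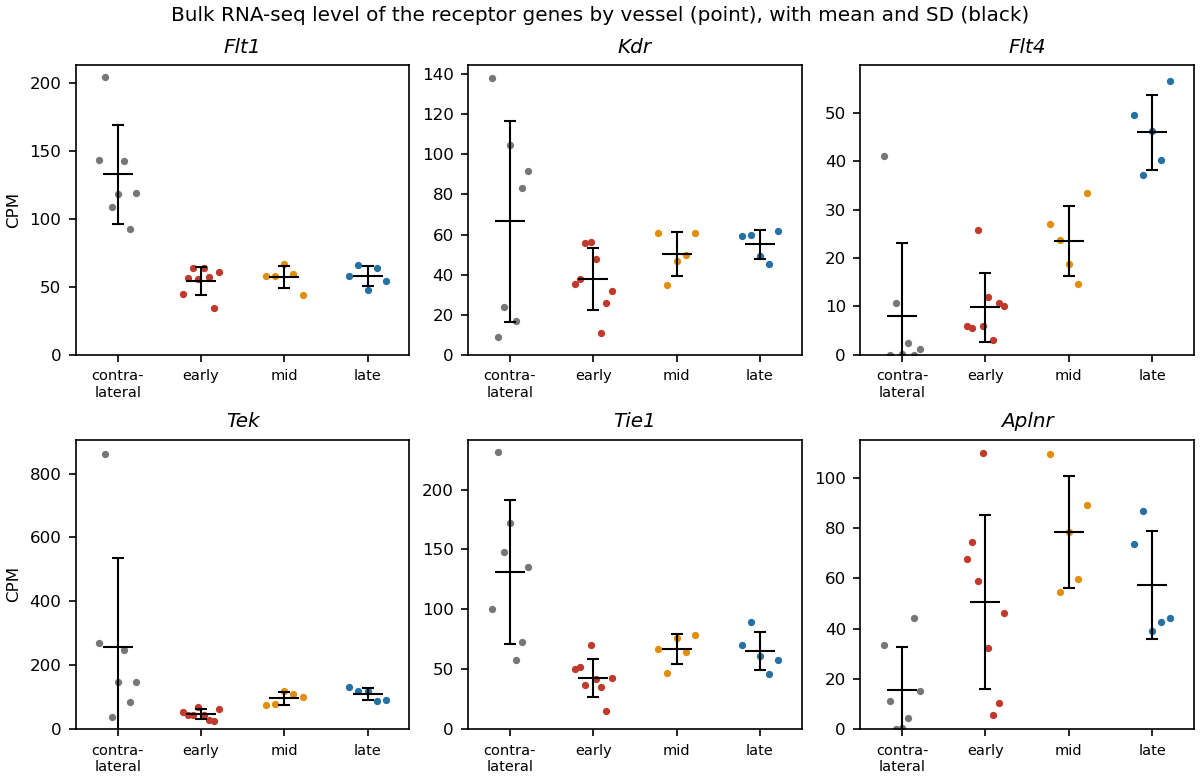
Bulk level (CPM, linear axis from 0) of the 6 receptor genes by vessel, with mean and SD in black and groups coloured as in the plot of the 10 genes. All 8 early AVFs lay below all contralateral veins for *Flt1*, 5 late AVFs reached 37.1 to 56.7 CPM for *Flt4*, and *Aplnr* was higher in all mid AVFs than in any contralateral vein.

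Of 12 class 3 semaphorin and plexin genes, the other partners of neuropilins, 11 were tested. *Sema3b* was the 1 gene called in early AVFs, lower by the test (-2.34, SE 0.55, adjusted p = 0.00273), and *Plxna1*, a neuropilin-associated signalling receptor gene, was the 1 gene called in mid AVFs, where it rose by 2.19 (SE 0.55, adjusted p = 0.00773). None was called in late AVFs. Of 15 hypoxia response genes, 14 were tested, and in early AVFs *Ldha*, a lactate dehydrogenase subunit gene, rose by 1.31 (SE 0.19, adjusted p = 9.03e-06) while *Ndrg1* fell by 1.04 (SE 0.25, adjusted p = 0.00273). The other 12 were not called in early AVFs, none was called in mid or late AVFs, and the list's early median was -0.06. Of 9 tip cell genes, 8 were tested. The chemokine receptor gene *Cxcr4*, also carried by leukocytes, rose in early AVFs (3.78, SE 0.82, adjusted p = 0.00129), the netrin receptor gene *Unc5b* rose in late AVFs (3.89, SE 0.86, adjusted p = 0.00353), and *Plvap*, a protein of fenestrated endothelium, fell at all 3 time points (-3.55, -3.79 and -3.15). Calls made up 12.6% of the whole tested set for early AVFs, 6.05% for mid and 5.33% for late. Whether any of these lists held more calls than that was not tested.

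The genes whose levels followed each member most closely across the 25 libraries, after removing group means, are given as a description. The highest Pearson correlations of log2 CPM were 0.976 with *Nab2* for *Vegfc*, 0.970 with *Gm44950* for *Pgf*, 0.970 with *Lars* for *Angpt2*, 0.962 with *Fam83d* for *Apln* and 0.929 with *Pus7* for *Nrp1*. They were lower for *Vegfb* (0.868 with *Arpc5l*), *Vegfa* (0.865 with *Dot1l*), *Angpt1* (0.865 with *Galnt17*) and *Nrp2* (0.849 with *Ptgir*), and lowest for *Vegfd* (0.762 with *Fbln1*, a matrix protein gene, then 0.739 with *Mfap2* and 0.728 with *Rcn3*). All points share the libraries and their depths. They include contralateral veins listed at 0, veins 28 and 31 for *Vegfc* and veins 34 and 632 for *Pgf*. *Angpt2* had 1 count in contralateral vein 28, and *Apln* was listed at 0 in 5 contralateral veins. The part of these low values in the correlations was not tested.

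The single-cell libraries show which cells held these transcripts. After filtering, 6319 of 11563 contralateral, 4753 of 7074 early and 5821 of 7801 late barcodes remained, with median depths of 2751, 8951 and 15425 UMIs, and each pair of libraries shared 14 to 19 barcodes. Doublets were called in 0, 1 and 96 cells, so the caller cannot be taken to have worked in the contralateral and early libraries, and called cells were kept. Lineages were named from marker genes and include mono/macros (781, 2185 and 1846 cells in the contralateral, early and late libraries), fibroblasts (1868, 409 and 1945), endothelial cells (816, 77 and 92), smooth muscle cells (34, 231 and 502), neutrophils (62, 786 and 284) and platelets (471, 133 and 69). No cluster was named dendritic, so dendritic cells were not separated from the other lineages. Levels are CPM of the lineage's summed UMIs, with exact 95% Poisson intervals that cover counting error only. With 1 library per condition no difference was tested.

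The conditions also occupied different clusters. Most contralateral fibroblasts (1759 cells) fell in a cluster led by *Dcn* and *Sfrp2* and most AVF fibroblasts (407 and 1916) in a cluster led by *Ptx3*. Contralateral mono/macros (693 cells) fell mostly in a cluster led by *Mrc1* and *Cd163*, and AVF mono/macros in clusters led by *Il1b* (1561 and 1015 cells) and by *Lyz2* and *C1qb* (595 and 809 cells).

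*Vegfa* transcripts came from different cells in the 3 libraries. Fibroblasts held 63.6% of 1898 contralateral *Vegfa* UMIs, mono/macros 81.1% of 10210 early UMIs, and mono/macros (48.3%) and fibroblasts (40.6%) most of 7386 late UMIs. In mono/macros its level was 43.2 CPM (36.9 to 50.4) in the contralateral, 267 (261 to 273) in the early and 132 (127 to 136) in the late library, a ratio of early to contralateral of 6.17 (5.29 to 7.25). The contralateral value was 26.8 CPM once called doublets were removed and the cells clustered again. With 0 contralateral cells called as doublets, this value moved with the assignment of cells to clusters. In that clustering 108 contralateral, 808 early and 581 late cells fell in a cluster given no name, with *Pth*, *Ccr7* and *Ccl22* among its leading genes.

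Within the *Il1b* cluster, *Vegfa* stood at 258 CPM (203 to 322) in the 37 contralateral cells, 334 (327 to 342) in the early and 165 (159 to 171) in the late library, and within the *Mrc1* and *Cd163* cluster at 17.7 (13.3 to 23.1), 6.78 (0.821 to 24.5) and 77.9 (42.6 to 131). The smallest of these groups held 22 cells, and the *Il1b* cluster was higher than the *Mrc1* and *Cd163* cluster in all 3. The group of 37 contralateral cells depended on the clustering. With called doublets removed, the *Il1b* cluster held 5 contralateral cells. At a resolution of 1.0, a cluster named dendritic and led by *Il1b* and *Ccr7* held 33. Whether the 37 were the same kind of cell as the AVF cells of that cluster was not tested. After thinning to 1000 UMIs a cell, 2.28% of 659 contralateral, 19.6% of 2168 early and 11.5% of 1808 late mono/macros had a *Vegfa* UMI (6.15%, 56.8% and 37.9% before thinning). Of contralateral erythroid cells, which should lack the gene, 2.26% had one before thinning and 0.363% after it, at a median depth of 2725 UMIs beside 3033 in contralateral mono/macros.

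Neutrophils had 449.6 CPM of *Vegfa* (363 to 551) in the contralateral, 246 (229 to 263) in the early and 204 (177 to 233) in the late library. Over all cells, *Vegfa* was 65.0 CPM in the contralateral, 183 in the early and 75.05 in the late library, whereas the bulk means, from vessels that were not dissociated, were 61.5, 29.5 and 26.3 CPM. In bulk, 6 adipocyte markers had median sums of 5107 CPM contralateral, 1075 early and 905 late, with none called. For 8 skeletal muscle markers these were 16.0, 319 and 797 CPM, with 5 of 7 tested called higher early and late. No single-cell cluster was named for either tissue, and their part in the bulk levels was not tested.

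*Vegfd* was a fibroblast gene in all 3 libraries. Fibroblasts held 91.6%, 86.6% and 92.6% of its UMIs in the contralateral, early and late libraries. Its level within fibroblasts was 70.7 CPM (66.2 to 75.4), 76.4 (71.4 to 81.6) and 85.1 (82.6 to 87.7). The ratio of early to contralateral was 1.08 (0.984 to 1.19). Over all cells it was 34.3, 18.2 and 46.2 CPM, where fibroblasts were 29.6%, 8.61% and 33.4% of cells. The early share lay below the lowest fibroblast share the paper gives for its groups. Clusters given no name held 6.55%, 13.4% and 8.45% of cells. They included 593 early cells in a cluster whose markers scored highest for fibroblasts.

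*Vegfc* UMIs lay mainly in fibroblasts (60.7%, 59.7% and 83.6%), at 20.6 CPM (18.2 to 23.2), 16.0 (13.8 to 18.5) and 15.8 (14.8 to 17.0). Its level in endothelial cells was above these in the contralateral library, at 51.0 CPM (43.2 to 59.8), and in the early one, at 41.9 (28.1 to 60.2), while the late value of 11.4 (4.18 to 24.8) came from 6 UMIs. *Vegfb* was spread over lineages, highest in smooth muscle cells in the contralateral (43.3 CPM, 23.7 to 72.6) and early libraries (30.6, 25.8 to 35.9). In the late library it was 28.9 (26.1 to 32.1) there and 36.0 (21.7 to 56.3) in endothelial cells.

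*Pgf* was rare in the contralateral library, with 96 UMIs in all cells, and had 924 and 1566 UMIs in the early and late libraries. Mono/macros held 63.3% and 46.5% of these, at 18.9 CPM (17.4 to 20.5) and 26.9 (24.9 to 28.9), beside 1.05 (0.286 to 2.68) from 4 contralateral UMIs. With doublets removed and the cells clustered again the early and late mono/macro values were 12.0 and 17.0 CPM. Only 1 early cell was called a doublet, so the early value moved with the assignment of cells to clusters. At a resolution of 1.0, a cluster named dendritic held 251 early and 201 late cells, whereas the main clustering named none. The part of such cells in the mono/macro *Pgf* levels was not tested. Endothelial cells had the highest *Pgf* level in AVFs, 59.3 CPM (42.6 to 80.5) early and 434 (380 to 494) late, beside 4.02 (2.08 to 7.03) in the contralateral library. Those late endothelial UMIs came from 19 of 92 cells, and the top 5 cells held 81.2% of them.

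*Angpt1* had its highest level in platelets, 290.5 CPM (244 to 343) in the contralateral, 239 (179 to 314) in the early and 292 (178 to 451) in the late library. Platelets are shallow, at a median of 711, 688 and 636 UMIs, and most *Angpt1* UMIs lay in fibroblasts (73.2%, 65.4% and 88.2%). In fibroblasts it was 51.1 CPM (47.3 to 55.2) in the contralateral, 22.6 (19.96 to 25.5) in the early and 29.6 (28.1 to 31.1) in the late library. The order of the libraries in fibroblasts was that of the bulk groups of the same name, taken at earlier mean days, with the lowest value early. The ratio of contralateral to early in fibroblasts was 2.26 (1.96 to 2.62). In the *Ptx3* cluster, which all 3 libraries shared, *Angpt1* was 24.6, 22.6 and 29.4 CPM, and the *Dcn* and *Sfrp2* cluster had 54.4 CPM in the contralateral library.

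*Angpt2* was highest in smooth muscle cells in the contralateral and early libraries and in endothelial cells in the late one. In smooth muscle cells it was 83.4 CPM (55.0 to 121), 76.0 (68.4 to 84.2) and 74.1 (69.4 to 79.0), and the ratio of late to contralateral was 0.888 (0.606 to 1.35). The contralateral value came from 27 UMIs in 34 cells, whose grouping depended on the clustering. At a resolution of 1.0, a smooth muscle cluster led by *Acta2* held 10 contralateral cells and another led by *Col2a1* held 37. In endothelial cells it was 35.5 CPM (29.1 to 43.0), 40.5 (26.9 to 58.5) and 135 (105 to 170), where 5 of 92 late cells held 74.6% of the UMIs. Smooth muscle cells held 9.57% of *Angpt2* UMIs in the contralateral library, 70.1% in the early and 58.3% in the late one, where the number of smooth muscle cells was 34, 231 and 502.

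**Figure D4:**
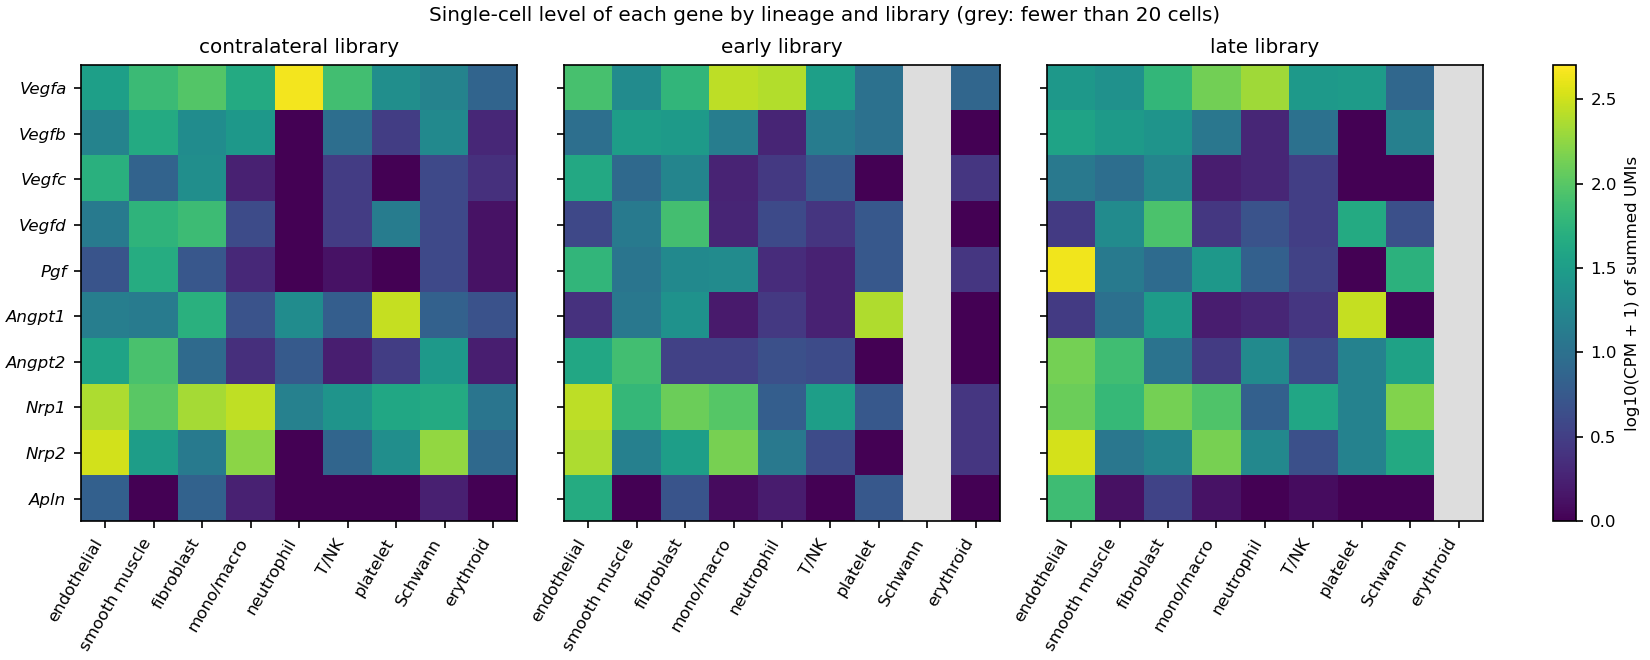
Level of the 10 genes in 9 lineages of the 3 single-cell libraries, as log10 of CPM + 1 of summed UMIs, with lineages of fewer than 20 cells in grey. *Vegfa* was high in neutrophils in each library and in mono/macros of the early and late ones, *Angpt1* was highest in platelets, *Angpt2* stood out in smooth muscle and endothelial cells, and *Pgf* in late endothelial cells (434 CPM).

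*Nrp1* was carried by endothelial cells, fibroblasts and mono/macros. In mono/macros it was 276 CPM (259 to 293) in the contralateral, 97.1 (93.7 to 101) in the early and 89.5 (86.0 to 93.1) in the late library. Within clusters the libraries were closer. The *Mrc1* and *Cd163* cluster had 322 (302 to 343), 291 (233 to 360) and 262 (192 to 348) CPM and the *Il1b* cluster 30.1 (13.8 to 57.1), 59.3 (56.1 to 62.5) and 45.7 (42.6 to 49.02). The contralateral *Il1b* cluster value came from the 37 cells whose grouping depended on the clustering. In endothelial cells *Nrp1* was 234 (217 to 252), 266 (229 to 308) and 123 (95.2 to 157) CPM.

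*Nrp2* was highest in endothelial cells, at 329 (309 to 350), 233 (198 to 272) and 336 (288 to 389) CPM, and was next in mono/macros in both AVF libraries, at 139 (135 to 143) and 138 (134 to 143) CPM. Schwann cells of the contralateral library had 184 CPM (162 to 208), above the contralateral mono/macros at 169 (156 to 182). Endothelial cells held 46.7% of contralateral *Nrp2* UMIs and mono/macros 84.8% of early and 75.2% of late ones.

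*Apln* UMIs were few, 99 in the contralateral, 93 in the early and 180 in the late library. In endothelial cells its level was 5.70 CPM (3.32 to 9.13), 44.8 (30.5 to 63.6) and 72.1 (51.0 to 98.9), from 17, 31 and 38 UMIs, and the ratio to the contralateral library was 7.87 (4.22 to 15.2) early and 12.6 (6.97 to 23.9) late. An *Apln* UMI was found in 7 of 816 contralateral (0.858%), 14 of 77 early (18.2%) and 7 of 92 late (7.61%) endothelial cells, and 5 late cells held 94.7% of the late UMIs. Among cells thinned to 1000 UMIs the shares were 0.488% of 615, 5.88% of 68 and 0 of 76, which allows a late share of up to 4.74% (exact binomial interval).

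In fibroblasts *Apln* was 6.00 CPM (4.75 to 7.49), 4.07 (2.99 to 5.42) and 2.53 (2.10 to 3.01), lowest in the late library, and fibroblasts held 78.8%, 50.5% and 69.4% of all *Apln* UMIs. T/NK cells had 0, 0 and 1 *Apln* UMIs. Over all cells, *Apln* was 3.39 CPM in the contralateral, 1.67 in the early and 1.83 in the late library, an order unlike that of the bulk groups. Endothelial cells were 12.9%, 1.62% and 1.58% of cells in these libraries.

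The cells named endothelial also differed in their markers. The summed level of 6 lymphatic endothelial markers in them was 11040 CPM in the late, 1337 in the contralateral and 1033 in the early library. In that same order, the 10 pan-endothelial markers summed to 4816, 10190 and 6658 CPM. *Flt4* was 560 CPM in the late and 116 CPM in the contralateral library. The part of this in the late endothelial levels of *Pgf*, *Angpt2* and *Apln* was not tested. In the contralateral, early and late libraries, endothelial cells held 136, 263 and 30 *Aplnr* UMIs, more than any other lineage, at 45.6, 380 and 56.9 CPM. *Tek* there was 268, 185 and 96.7 CPM.

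**Figure D5:**
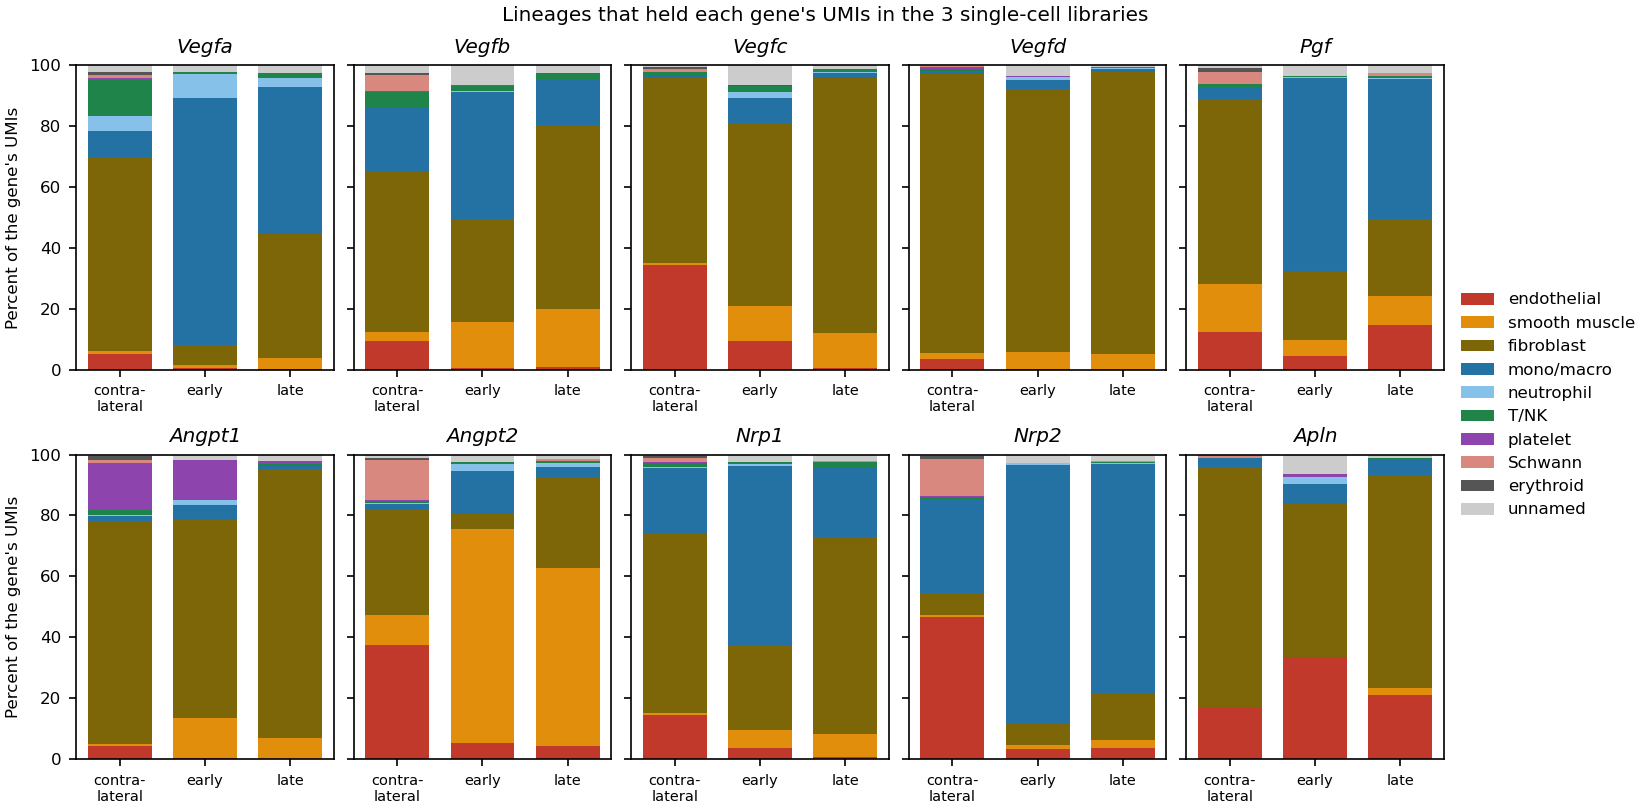
Percent of each gene's UMIs held by each lineage in the contralateral, early and late libraries (stacked bars from 0 to 100). Mono/macros (blue) held 81.1% of early *Vegfa* UMIs, fibroblasts (brown) at least 86.6% of *Vegfd* UMIs in every library, and smooth muscle cells (orange) 70.1% of early *Angpt2* UMIs. The bars also follow the number of cells captured from each lineage.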

How the data were processed

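Bulk values are raw gene counts deposited by the authors for 25 vessels, and single-cell values are UMI counts per gene and barcode deposited by the authors for 3 pooled libraries. The submitters' processing notes name STAR, Cell Ranger, mm10 and GRCm38 without saying which was used for which table, and 0 columns of per-sample values were left unused. The members and gene lists were chosen with earlier results of these data known. All 10 members are named. Other pathway genes are named where called against contralateral veins, and receptors throughout.

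Genes whose DESeq2-normalized counts averaged 100 or more across the bulk libraries were tested with edgeR 4.0.16 (R 4.3.3), using TMM scaling, the quasi-likelihood test on group without covariates and Benjamini–Hochberg adjustment. A call needed an adjusted p under 0.01 and a log2 fold change of 1 or more in size. The procedure was tested on simulated data. Nothing in the labels says more about replicates than that they are separate samples, so p-values measure the spread between these samples. The same estimate of each gene's spread served all groups, so tests between AVF groups also carry the spread of the contralateral veins. Per-kilobase levels used the union of annotated exons. Genes most like a member are those with the highest Pearson correlation of log2 CPM (prior count 2) deviations from group means. *Ero1a* was matched as *Ero1l*. Promoters came from RefSeq (GRCm38.p6).

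Barcodes were kept between 200 and 6000 genes with no more than 10% mitochondrial UMIs, then clustered with scanpy 1.11.5 (2000 variable genes, 12 principal components, resolution 0.5) and named from markers. Names are rebuilt, not the authors'. UMIs were summed by library and lineage. Alternatives were other scalings, filters and thresholds, DESeq2 1.42.0, sex as a covariate, female mice alone, each library left out and, chosen after seeing the data, early libraries 5 and 6 left out.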

Additional observations from a re-analysis of the deposited data

Results flagged for a closer look

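In 4 of 40 groups of bulk libraries examined (10 genes in 4 groups), 1 library stood apart from the rest by Dixon's criterion, which chance meets in about 1 in 20 groups. *Vegfc* was 10.5 CPM in mid AVF 15, and the next lowest mid AVF had 15.5 CPM. *Angpt1* was 29.8 CPM in late AVF 24, and the next highest late AVF had 21.7 CPM. *Nrp2* was 194 CPM in contralateral vein 632, and the next highest had 69.1 CPM. *Apln* was 0.862 CPM in contralateral vein 633, and the next highest had 0.237 CPM.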

How the results depend on the processing

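In early AVFs 3 of the 10 genes were called, 0 with female mice alone, 1 (*Apln*) with early libraries 5 and 6 left out, and 2 to 3 with any 1 library left out. In mid and late AVFs the 1 call became 0 with female mice alone and stayed at 1 with any 1 library left out. The adjusted p over 33 alternatives ran from 8.13e-05 to 0.187 for *Vegfd* and from 7.68e-05 to 0.162 for *Angpt1* in early AVFs. No paired analysis was possible because the groups share no replicate numbers. The causes of these changes were not tested.

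The sign turned only for log2 fold changes that were not called. Against contralateral veins, early *Nrp1* was -0.039 with DESeq2 size factors, -0.072 with filterByExpr, -0.033 without a filter, -0.039 by DESeq2's Wald test and -0.056 with sex as a covariate. Early *Nrp2* was -0.020, -0.083, -0.041, -0.020 and -0.019 under those settings, and early *Angpt2* was -0.027 with filterByExpr. Without early libraries 5 and 6, *Pgf* was 0.17 for mid against early. With sex as a covariate, late against early was -0.015 for *Pgf* and 0.18 for *Apln*, and late against mid was 0.042 for *Vegfa*. In female mice alone, *Apln* was 0.11 for mid against early and 0.31 for late against early, *Pgf* -0.23 for late against early, and late against mid was -0.15 for *Vegfb* and 0.030 for *Nrp1*. *Nrp1* was 0.0095 for late against mid without a filter.

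With 1 library left out in turn, early against contralateral ran from -0.45 to 0.00031 for *Vegfb*, -0.16 to 0.60 for *Angpt2*, -0.25 to 0.31 for *Nrp1* and -0.21 to 0.56 for *Nrp2*. Mid against early ran from -0.28 to 0.070 for *Vegfa* and -0.35 to 0.041 for *Pgf*, and late against early from -0.28 to 0.060 and from -0.053 to 0.26 for the same genes. Late against mid ran from -0.16 to 0.12 for *Vegfa*, -0.14 to 0.35 for *Vegfb*, -0.046 to 0.095 for *Vegfc*, -0.10 to 0.25 for *Vegfd* and -0.096 to 0.077 for *Nrp1*.

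Of 250 single-cell levels, 10 moved beyond their Poisson interval with called doublets removed and the cells clustered again. The number was 39 as means over cells, 23 without the mitochondrial limit and 14 at a clustering resolution of 1.0.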
